A study of Mus musculus with 6 samples.

Results

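The genes described are 9 that handle extracellular nucleotides: 7 receptors (P2ry6, P2ry12, P2ry13, P2rx4, P2rx7, Adora2a and Adora2b) and 2 enzymes that make adenosine (Entpd1 and Nt5e). They were chosen by symbol for that role, with earlier results of these data known. All 9 of 9 were found among the 16344 genes of the deposited table. RNA was sequenced from 3 AZD7507 tumours and 3 Vehicle tumours. All 6 grew from the mouse high-grade serous ovarian cancer line 60577, injected into the peritoneal cavity of syngeneic mice. After 21 days, 3 weekly cycles of carboplatin were given, and these were followed by daily oral AZD7507, an inhibitor of the receptor CSF1R, for 84 days in the AZD7507 group. The labels carry 1 treatment protocol for all 6 samples, so both groups are described as treated with carboplatin, and it gives no separate dosing schedule for the vehicle. Tumours were taken at the humane endpoint, and the labels give no day of collection, strain, sex or age. They name no animal for each tumour, though each sample title carries its own code, which is not interpreted here. The model is 1 transplanted cell line, so the tumours share 1 origin, and p-values measure only the spread between these libraries.

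Cells that are damaged or activated release ATP, which acts outside the cell as a signal. P2X receptors are ion channels opened by ATP, and P2Y receptors are G protein-coupled receptors for nucleotides such as ADP and UDP. The surface enzyme CD39, encoded by Entpd1, cuts ATP and ADP to AMP, and CD73, encoded by Nt5e, cuts AMP to adenosine. Adenosine then acts on receptors such as A2A and A2B, through which it is known to dampen leukocytes in tumours. Macrophages carry several of these receptors and depend on CSF1R, the target of AZD7507.

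Values are read as log2 RPKM (read density per gene length and library size, adjusted by the authors for length and GC content). On this scale 1 unit is a doubling and 0 is 1 RPKM. Differences are AZD7507 minus Vehicle, tested with limma across all 16344 genes at a Benjamini-Hochberg adjusted p under 0.05, and called means past that threshold. Read depth is unknown. The libraries differed in cell content. Transcripts of pancreatic acinar cells summed to 5409 RPKM in AZD7507 2 and 4904 RPKM in Vehicle 2, and to between 2.35 and 10.6 RPKM in the other 4 libraries. Vehicle 2 also held 202 RPKM of osteoclast-type transcripts, against 17.6 to 22.2 RPKM in the AZD7507 libraries and at most 21.3 RPKM in the other Vehicle libraries. That sum rested mostly on Ctsk, Mmp9 and Acp5, at 6.45, 5.94 and 5.62 log2 RPKM in Vehicle 2. Atp6v0d2 was also highest there, at 1.21. Dcstamp, at 0.30, was near the 0.02 of Vehicle 3, and Calcr, at -1.62, was not highest there. Of 11 epithelial and tumour genes with a value, Wt1 and Msln were at 5.47 log2 RPKM or above in all 6 libraries. Krt18 and Krt19 were at 6.89 or above, whereas Pax8, a marker of the tubal lineage, was at -2.09 or below. Epcam ran from 2.26 in Vehicle 2 to 4.46 in Vehicle 3, and Cldn3 from -0.83 in Vehicle 1 to 2.49 in AZD7507 2. All 11 had a positive difference (median 0.26), with groups apart for Krt8 and Krt18, and none was called. The part of tumour cells in these levels was not tested.

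The ADP receptor genes lie side by side on chromosome 3, with 5389 bases between P2ry13 (59207892 to 59210882) and P2ry12 (59216272 to 59262871), both on the minus strand of GRCm38 in the GENCODE M21 annotation. They had the largest differences of the 9 genes, and the 250 bases before their RefSeq starts (build GRCm38.p6) are shown for that reason, next to those of P2rx4, a receptor gene with a small difference. Capitals mark AGGAAG, a core recognised by PU.1, the ETS factor of macrophages. It was searched on both strands (the other strand reads CTTCCT) and was chosen with these windows already seen.
P2ry12 chr3:59262986-59263235, minus strand: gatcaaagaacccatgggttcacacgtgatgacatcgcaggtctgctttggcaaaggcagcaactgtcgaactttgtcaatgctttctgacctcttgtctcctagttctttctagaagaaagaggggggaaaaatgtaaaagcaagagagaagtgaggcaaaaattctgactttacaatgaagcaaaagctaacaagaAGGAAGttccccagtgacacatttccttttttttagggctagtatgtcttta
P2ry13 chr3:59210883-59211132, minus strand: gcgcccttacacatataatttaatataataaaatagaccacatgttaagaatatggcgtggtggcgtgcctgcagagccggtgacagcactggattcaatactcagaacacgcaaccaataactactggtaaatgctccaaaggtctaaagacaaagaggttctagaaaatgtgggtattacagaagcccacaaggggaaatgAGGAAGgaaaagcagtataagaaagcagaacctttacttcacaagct
P2rx4 chr5:122707294-122707543, plus strand: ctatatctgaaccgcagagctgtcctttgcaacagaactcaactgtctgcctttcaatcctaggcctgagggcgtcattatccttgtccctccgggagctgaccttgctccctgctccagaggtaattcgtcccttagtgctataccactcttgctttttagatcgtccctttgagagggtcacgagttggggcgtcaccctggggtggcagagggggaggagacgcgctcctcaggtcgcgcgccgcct

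The match began 52 bases before the start of P2ry12 and 47 bases before that of P2ry13, and these letters were not in the P2rx4 window. Windows were at hand for 7 of the 9 genes, with 2 starts each for P2rx7 and Entpd1, and 4 of these 9 windows held the motif. Besides P2ry12 and P2ry13 these were the second windows of P2rx7 and Entpd1. Of all 32851 windows of this length, 9686 or 29.5% held it, so a match is a frequent event. P2ry6 and Adora2a had no window.

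Among the 9 genes, P2ry12, P2ry13 and P2ry6 had the largest differences, P2rx7 and P2rx4 had smaller ones with groups still apart, and Adora2a, Adora2b, Entpd1 and Nt5e had groups that overlapped. None of the 9 genes passed the adjusted threshold in either direction, against 0.337% of all genes called lower and 0.0184% called higher. At an unadjusted p under 0.05, 5 of the 9 were lower with AZD7507, namely P2ry6, P2ry12, P2ry13, P2rx4 and P2rx7, where 5.49% of all genes were. In the same 5 genes every AZD7507 library lay below every Vehicle library, which was so for 8.02% of all genes, and in none of the 9 was every AZD7507 library above, as for 7.34% of all genes. The median difference of the 9 genes was -0.59, and that of all genes was 0.03. Because the 9 were chosen with earlier results of these data known, these shares and medians describe them and are no test of the set. In bulk tumours, fewer cells of a type and less RNA per cell cannot be told apart.

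**Figure D1:**
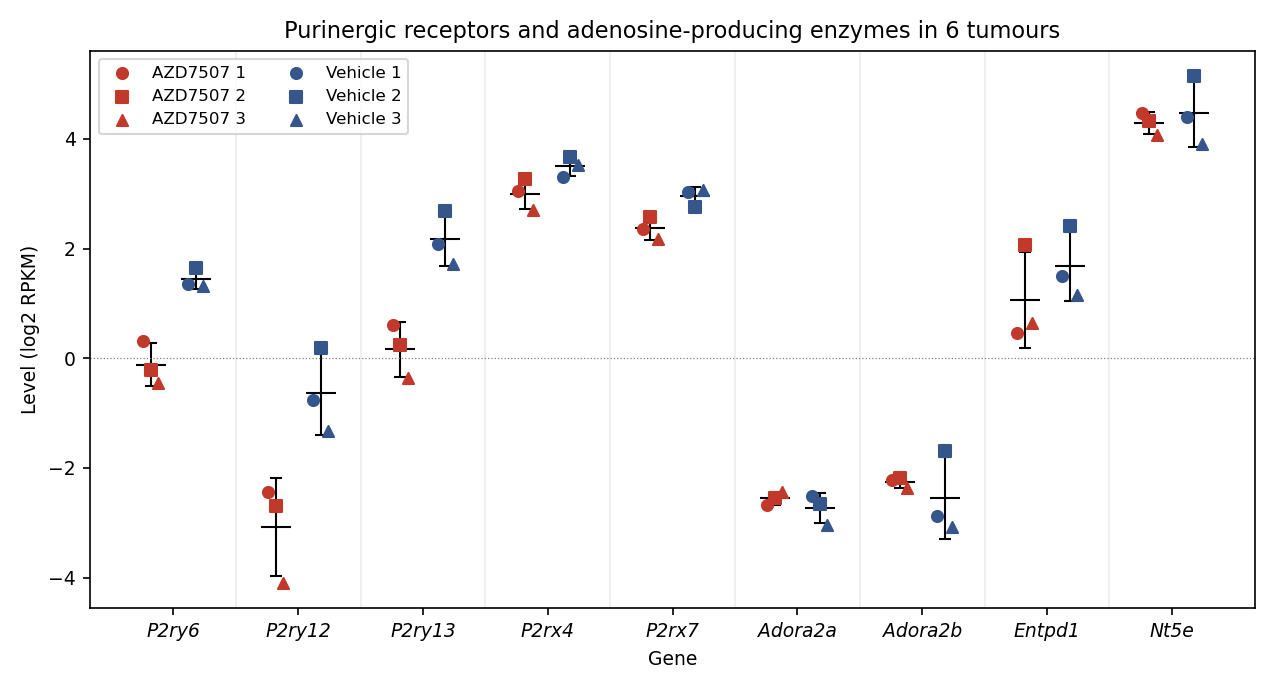
Level of each of the 9 genes (log2 RPKM, vertical axis) in the 3 AZD7507 libraries (red) and the 3 Vehicle libraries (blue), with marker shapes for the library number and bars for the mean and SD. The groups are apart for the 3 P2Y and the 2 P2X receptor genes and overlap for Adora2a, Adora2b, Entpd1 and Nt5e.

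P2ry6 encodes the P2Y6 receptor for UDP, which in microglia is known for triggering phagocytosis. It is a protein-coding gene on chromosome 7 (100937630 to 100974649, minus strand). Its level was 0.32, -0.21 and -0.45 log2 RPKM in the AZD7507 libraries, against 1.35, 1.64 and 1.32 log2 RPKM in the Vehicle libraries. The groups were apart by 0.998 on the log2 scale, and the Vehicle tumours lay close together. The means were -0.11 ± 0.40 with AZD7507 and 1.44 ± 0.18 with Vehicle (SD, n = 3 each), and the difference of -1.55 (SE 0.25, 95% interval -2.13 to -0.98) corresponds to a level 2.93-fold lower. This was the smallest p of the 9 genes, with a limma adjusted p of 0.064, and it did not pass. With limma array weights, which count each library by its fit to its group, the difference was -1.38 and passed narrowly (limma adjusted p 0.0495), in a fit that called 0.875% of all genes lower.

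P2ry13 and P2ry12 encode ADP receptors. P2Y12 is the receptor that antiplatelet drugs block and is also a marker of resting microglia, and P2Y13 is its close relative. P2ry13 was at 0.61, 0.24 and -0.37 log2 RPKM in the AZD7507 libraries, against 2.09, 2.69 and 1.73 log2 RPKM in the Vehicle libraries. The lowest Vehicle library was 1.11 above the highest AZD7507 library. The difference of -2.01 (SE 0.33, 95% interval -2.77 to -1.24), or 4.02-fold lower, had a limma adjusted p of 0.070 and did not pass.

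P2ry12 was at -2.44, -2.70 and -4.09 log2 RPKM with AZD7507, against -0.76, 0.20 and -1.32 log2 RPKM with Vehicle. The groups were apart by 1.12. AZD7507 3 and Vehicle 3 were the lowest libraries of their groups for both ADP receptors, but the numbers follow record order and pair no libraries. P2ry12 had the largest difference of the 9 genes, at -2.45 (SE 0.58, 95% interval -3.80 to -1.10), but the widest interval too, and its limma adjusted p was 0.20. Its AZD7507 mean of 0.119 RPKM exceeded only 0.453% of all genes, and its Vehicle mean of 0.648 RPKM exceeded 9.09%, so both may rest on few reads. On the log2(RPKM + 1) scale the difference shrank to -0.58, against -1.37 for P2ry13 and -0.94 for P2ry6.

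Per length, P2ry12 was below P2ry13 in all 6 libraries. The log2 ratio of P2ry12 to P2ry13 was -3.05, -2.94 and -3.72 with AZD7507, against -2.85, -2.50 and -3.04 with Vehicle, and these values overlapped between the groups. Both genes lie within Med12l, which runs on the opposite strand, and strand use in the counting was not given. P2ry12 shares 9 of its 2546 exonic bases with Med12l, and P2ry13 shares none. Med12l itself was at -2.37 ± 0.36 with AZD7507 and -1.33 ± 0.51 with Vehicle (SD, n = 3 each). Its groups were apart, and the difference of -1.04 did not pass (limma adjusted p 0.50).

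P2rx4 and P2rx7 encode channels opened by ATP. P2X7 needs high ATP and is known for switching on the NLRP3 inflammasome in macrophages, while P2X4 responds to lower ATP and is found on many cell types. Their genes are neighbours on the plus strand of chromosome 5, P2rx7 at 122643911 to 122691432 and P2rx4 at 122707544 to 122729738, with 16111 bases between them.

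P2rx7 was at 2.36, 2.58 and 2.17 log2 RPKM in the AZD7507 libraries, against 3.03, 2.77 and 3.07 log2 RPKM in the Vehicle libraries. The groups were apart by only 0.19. The difference was -0.59 (SE 0.15, 95% interval -0.93 to -0.24), or 1.50-fold lower, and did not pass (limma adjusted p 0.24). With array weights the difference of -0.72 passed (limma adjusted p 0.034). Vehicle 2, which had the smallest weight, was the Vehicle library with the lowest P2rx7, unlike for the P2Y genes, of which it had the most.

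P2rx4 was at 3.05, 3.27 and 2.70 log2 RPKM with AZD7507, against 3.31, 3.68 and 3.52 log2 RPKM with Vehicle. The groups barely separated, by 0.04. The difference was -0.50 (SE 0.17, 95% interval -0.90 to -0.10), or 1.41-fold lower, and the limma adjusted p was 0.44. P2rx4 was the more abundant of the pair per length in each library. The log2 ratio of P2rx7 to P2rx4 averaged -0.64 ± 0.09 with AZD7507 and -0.55 ± 0.33 with Vehicle (SD, n = 3 each), with values that overlapped.

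Adora2a and Adora2b encode the adenosine receptors A2A and A2B. A2A restrains T cells and macrophages at low adenosine, and A2B needs more adenosine and is also found on epithelial and stromal cells. Adora2a (chromosome 10, 75316877 to 75334784, plus strand) was at -2.67, -2.55 and -2.43 log2 RPKM with AZD7507, against -2.51, -2.65 and -3.04 log2 RPKM with Vehicle. The groups overlapped, and both were near the bottom of the table, above 1.32% of genes with AZD7507 and 0.808% with Vehicle. The difference was 0.18 (95% interval -0.67 to 1.03, limma adjusted p 0.93).

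Adora2b (chromosome 11, 62248984 to 62266453, plus strand) was at -2.22, -2.18 and -2.37 log2 RPKM with AZD7507, against -2.87, -1.70 and -3.07 log2 RPKM with Vehicle. Here Vehicle 2 stood above all other libraries, and the 2 remaining Vehicle libraries were below all 3 AZD7507 libraries. The difference was 0.29 (95% interval -0.77 to 1.35, limma adjusted p 0.90), and without Vehicle 2 it was 0.71 (limma adjusted p 0.43). Both receptors were near the bottom of the table. Their intervals leave room for a difference in either direction, from -0.67 to 1.03 for Adora2a and from -0.77 to 1.35 for Adora2b. The log2 ratio of Adora2a to Adora2b was -0.30 ± 0.21 with AZD7507 and -0.19 ± 0.69 with Vehicle (SD, n = 3 each, 2-sided exact permutation p = 0.90, where the smallest p possible is 0.1).

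**Figure D2:**
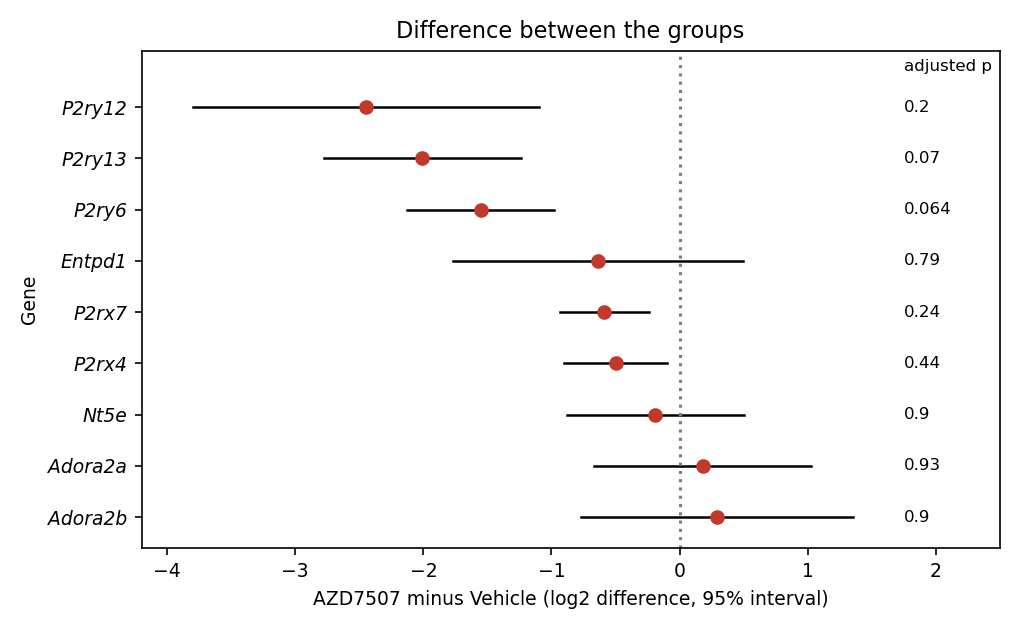
Difference between AZD7507 and Vehicle (log2, horizontal axis) for each gene with its 95% interval, with limma adjusted p printed at the right. The intervals of the 3 P2Y and 2 P2X genes lie below 0, but the smallest adjusted p, of P2ry6, is 0.064.

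Entpd1 (CD39) lies on chromosome 19 (40612366 to 40741602, plus strand), and its enzyme is found on macrophages, regulatory T cells and endothelium. Its level was 0.46, 2.06 and 0.64 log2 RPKM with AZD7507, against 1.50, 2.41 and 1.16 log2 RPKM with Vehicle. The highest library of each group was replicate 2, the same libraries that held the acinar transcripts. The part of acinar content in the Entpd1 level was not tested. With all libraries the groups overlapped, and the difference was -0.64 (SE 0.48, 95% interval -1.77 to 0.50, limma adjusted p 0.79). Without both libraries numbered 2 the AZD7507 and Vehicle values no longer overlapped and the difference was -0.78 (limma adjusted p 0.18). It was -1.14 without AZD7507 2 alone and -0.27 without Vehicle 2 alone, and neither passed.

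Nt5e (CD73) lies on chromosome 9 (88327197 to 88372092, plus strand) and is made by many stromal and epithelial cells. It was the most abundant of the 9 genes per length in each group. Its level was 4.47, 4.34 and 4.07 log2 RPKM with AZD7507, against 4.39, 5.15 and 3.91 log2 RPKM with Vehicle. The AZD7507 libraries lay inside the Vehicle range. Their geometric mean was 19.6 RPKM with AZD7507 and 22.3 RPKM with Vehicle, above 87.0% and 89.3% of all genes. The difference was -0.19 (SE 0.29, 95% interval -0.88 to 0.50, limma adjusted p 0.90), and it turned to 0.14 without Vehicle 2, where it did not pass either (limma adjusted p 0.75). The mean log2 level of 10 fibroblast genes was 4.12 to 4.25 in the AZD7507 libraries, against 4.87 in Vehicle 2 and 4.01 and 4.33 in the other Vehicle libraries. The part of fibroblast content in the Nt5e level was not tested.

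Per length, Nt5e exceeded Entpd1 in every library. The log2 ratio of Entpd1 to Nt5e was -4.01, -2.27 and -3.43 with AZD7507, against -2.89, -2.73 and -2.75 with Vehicle. The mean of -3.24 with AZD7507 is a 9.42-fold excess of Nt5e, and the mean of -2.79 with Vehicle is a 6.92-fold excess. The 3 Vehicle ratios lay within 0.16 of each other, and the AZD7507 ratios spread to both sides of them. The groups did not separate (2-sided exact permutation p = 0.40, adjusted p = 0.80 over the 2 ratios tested, smallest p possible 0.1).

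The order of the levels was shared at the top and differed below. In each group Nt5e, P2rx4 and P2rx7 came first, with ranges that did not touch. In AZD7507 tumours Entpd1, P2ry13 and P2ry6 followed, with each pair of neighbours overlapping. The lowest there were Adora2b, Adora2a and P2ry12, and the ranges of Adora2a and P2ry12 overlapped. In Vehicle tumours P2ry13, Entpd1 and P2ry6 followed with overlapping neighbours, P2ry12 stood apart in seventh place, and Adora2b and Adora2a overlapped at the bottom. P2ry12 was thus above both adenosine receptors in Vehicle tumours and had the lowest mean of the 9 in AZD7507 tumours.

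Macrophage markers also had lower means with AZD7507. Of 18 macrophage genes 18 had a value, 18 had a negative difference and 6 were called lower, among them Csf1r at -2.62 (limma adjusted p 0.035), where 0.337% of all genes were called lower. Without 1 library 0 to 2 of them were called lower, with 0 in each fit that left out a Vehicle library, AZD7507 2 or AZD7507 3. Their summed level was 248 to 386 RPKM with AZD7507, against 716 to 979 RPKM with Vehicle, and no defining marker was absent. Their median difference was -1.65. The part of macrophage content in the receptor levels was not tested. Of 6 T cell genes with a value 5 had a negative difference (median -0.50), and of 3 B cell genes 3 did (median -0.94). Of 4 dendritic cell genes 1 was negative (median 0.18), as was 1 of 4 neutrophil genes (median 0.83). None of these was called, and the part of these cells was not tested either. Of 8 platelet genes 2 had a value, Pf4 and Itga2b, with differences of -1.46 and 0.23, neither called, and they summed to 3.18 to 4.35 RPKM with AZD7507 and 4.30 to 6.44 RPKM with Vehicle.

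The mean level of the macrophage genes gives a scale for the size of these differences. That mean was 2.27 ± 0.49 log2 RPKM with AZD7507 and 4.01 ± 0.47 log2 RPKM with Vehicle (SD, n = 3 each), a difference of -1.74. A gene with no difference between the groups therefore comes out 1.74 higher with AZD7507 once the mean is subtracted, and 94.3% of all genes had groups apart upward on this relative scale, against 0.263% downward. P2ry6 minus this mean was -2.34, -2.63 and -2.17 with AZD7507, against -2.45, -2.90 and -2.36 with Vehicle, and the groups overlapped. P2ry13 minus the mean was -2.05, -2.18 and -2.08 with AZD7507, against -1.71, -1.85 and -1.96 with Vehicle, with no overlap and a relative difference of -0.26. For P2ry12 the relative difference was -0.71, also with no overlap. Differences of the 18 macrophage genes themselves ran from -3.18 to -0.69, which spans the -2.45 of P2ry12 and the -2.01 of P2ry13. On the log2(RPKM + 0.1) scale the relative differences were -0.047 for P2ry12 and -0.21 for P2ry13. On the log2(RPKM + 1) scale both turned positive, to 0.89 for P2ry12 and 0.096 for P2ry13.

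The relative differences were 1.16 for P2rx7, 1.24 for P2rx4, 1.11 for Entpd1 and 1.55 for Nt5e, all short of the 1.74 of a gene with no difference, and 1.92 for Adora2a and 2.03 for Adora2b, just above it. Groups were apart upward for P2rx4, P2rx7, Adora2a, Adora2b and Nt5e, as for most genes of the table, so nothing is read from these 5. In exact permutation tests of 3 against 3 libraries, which cannot go below 0.1, no relative difference passed (2-sided, adjusted p = 0.13 for P2ry12 and P2ry13 and 0.40 for P2ry6, over the 9 genes).

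**Figure D3:**
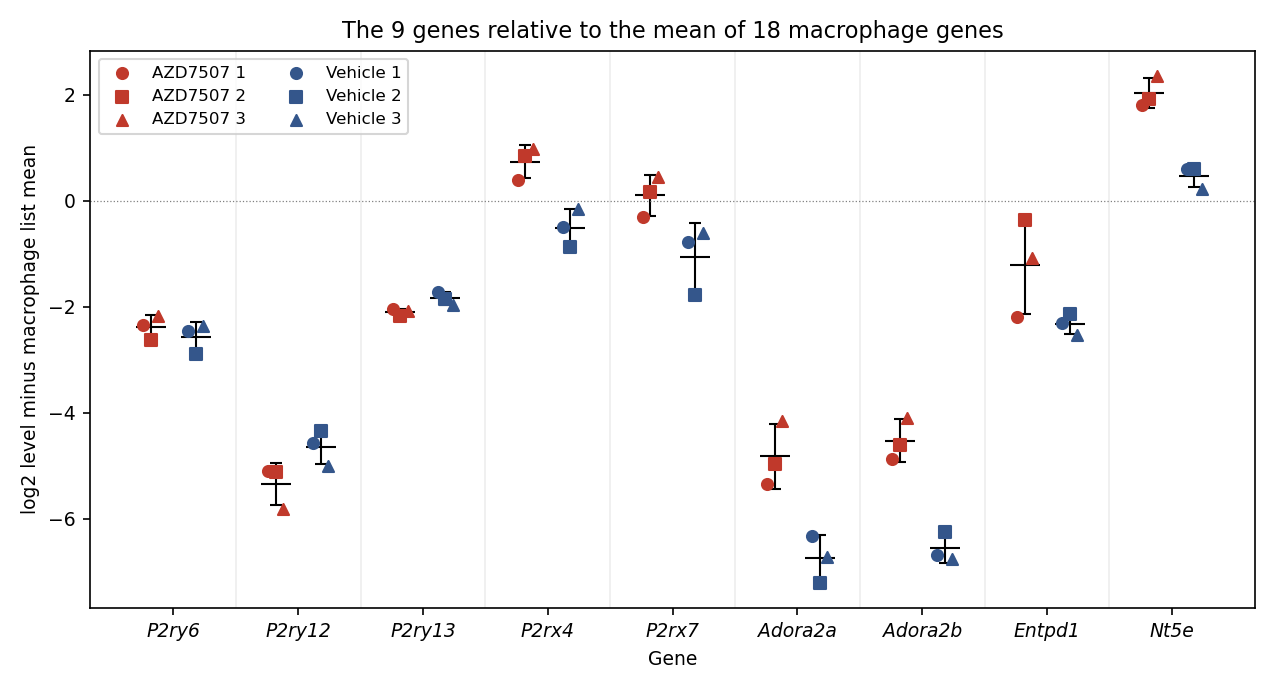
Level of each gene minus the mean log2 level of 18 macrophage genes in the same library (vertical axis, log2), for AZD7507 (red) and Vehicle (blue) with mean and SD. A gene with no difference between the groups would stand 1.74 higher with AZD7507 here; P2ry6 overlaps between the groups, and P2ry12 and P2ry13 are lower with AZD7507, but higher on the log2(RPKM + 1) scale.

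The genes most like the P2Y pair with the smallest p were found by the mean absolute difference between centred log2 values over the 6 libraries, among 11534 named genes with a mean log2 RPKM of at least 0. P2ry6 was most like Plcb2, a phospholipase C gene, at a mean distance of 0.052, Vav1, an exchange factor gene, at 0.073 and Sash3, an adaptor gene, at 0.088. P2ry13 was most like Inpp5d, which encodes the lipid phosphatase SHIP1, at 0.043, Pld4 at 0.10 and Adgre1, which encodes a surface antigen of mouse macrophages, at 0.15. Inpp5d was at 1.43, 1.17 and 0.52 log2 RPKM with AZD7507, against 2.94, 3.48 and 2.62 log2 RPKM with Vehicle, a course over the libraries close to that of P2ry13. Of these 6 genes, Adgre1 was called lower (-2.28, limma adjusted p 0.021).

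Other genes of nucleotide signalling showed no call. Of 12 other purine receptor symbols 6 had a value, 2 with a negative and 4 with a positive difference, and their median was 0.20. P2rx2, an ATP channel gene, had a difference of 0.71 (limma adjusted p 0.57), Adora1, another adenosine receptor gene, 0.30 and P2rx6 0.21. The further P2Y genes with a value, P2ry2 and P2ry14, had differences of -0.21 and -0.22, and P2rx5 one of 0.19, all with groups that overlapped. Of 20 symbols of nucleotide breakdown and adenosine clearance 15 had a value, 6 negative and 9 positive, with a median of 0.15. Dpp4, which encodes the surface protein that holds adenosine deaminase in human cells, was at 2.22, 2.45 and 1.92 log2 RPKM with AZD7507, against 1.62, 1.08 and 1.77 log2 RPKM with Vehicle. Its groups were apart, and the difference of 0.70 did not pass (limma adjusted p 0.39). Entpd2, which encodes a relative of CD39 that prefers ATP, had a difference of -0.76, and Adk, the adenosine kinase gene, 0.41, both with overlap.

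Of 12 symbols of nucleotide release and nucleoside transport 9 had a value, 3 negative and 6 positive, with a median of 0.08. Slc28a3, a concentrative nucleoside transporter gene, was at 1.79, 2.05 and 1.18 log2 RPKM with AZD7507, against 0.45, 1.17 and -0.91 log2 RPKM with Vehicle. The highest Vehicle library nearly reached the lowest AZD7507 library, and the difference of 1.44 (SE 0.51) had a limma adjusted p of 0.47. Slc29a3, a transporter gene of lysosomes, had a difference of -0.49 with groups apart (limma adjusted p 0.26), and the connexin gene Gja1 0.44 with overlap. Among the 7 inflammasome genes, which act after P2X7, Nlrp3 was at -0.20, -1.07 and -1.12 log2 RPKM with AZD7507, against 0.73, 1.24 and 0.32 log2 RPKM with Vehicle. The Nlrp3 groups were apart, with a difference of -1.56 (limma adjusted p 0.18). Casp1 was apart the other way, at 4.64, 4.63 and 4.62 log2 RPKM with AZD7507, against 4.48, 4.45 and 4.45 log2 RPKM with Vehicle, a difference of 0.17 (limma adjusted p 0.67). Il1b had a difference of -0.44 and was not called, and the median of the 7 was -0.14 with 5 negative.

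**Figure D4:**
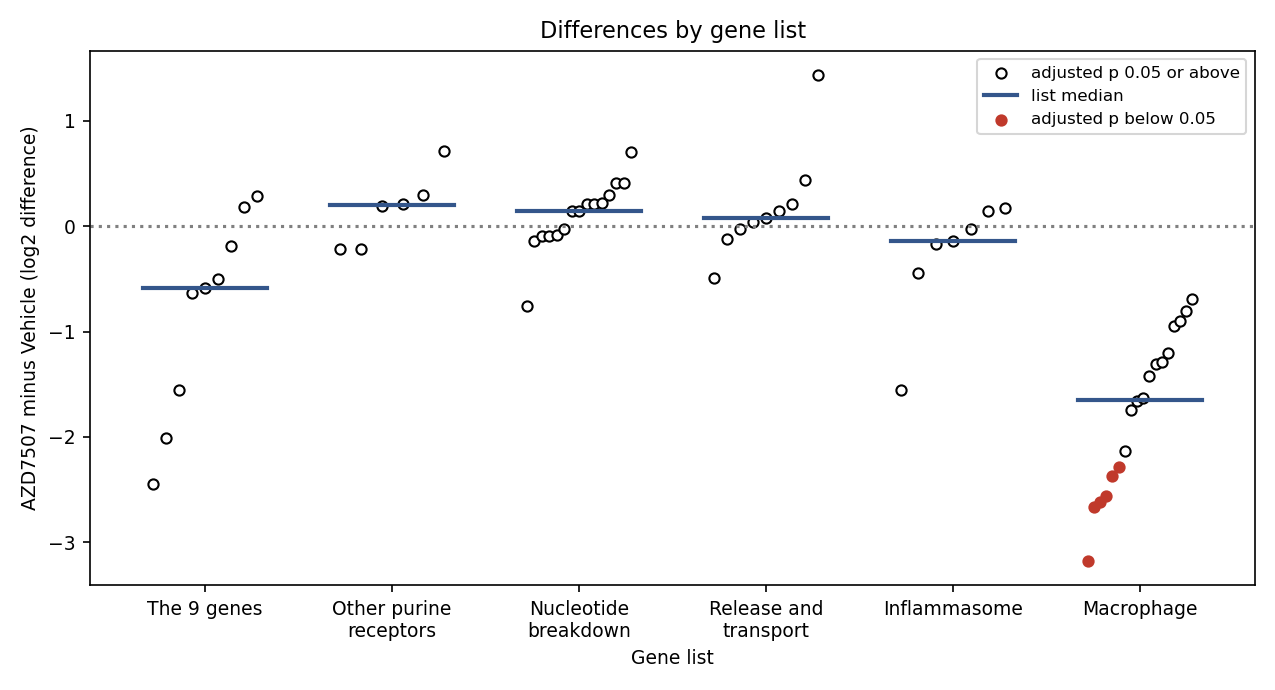
Differences between AZD7507 and Vehicle (log2, vertical axis) for the genes of each list, with list medians as blue lines and called genes in red. Medians are -0.59 for the 9 genes, between -0.14 and 0.20 for the 4 lists of other signalling genes and -1.65 for the macrophage genes, and called genes occur only in the last list.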

How the data were processed

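Tumour RNA was depleted of ribosomal RNA and sequenced, per the labels' protocols. Per the name of the deposited table, the authors made RPKM values and normalized them with cqn, which gives the libraries like distributions and hides any global shift. That name does not state the log2 scale, which was inferred from the range of the values, -6.15 to 10.2. The submitters' processing notes name BWA 0.7.15-r1140, HTSeq, mm10 and GRCm38. The annotation, the strand setting and any low-value filter are not given in the sources used here, and depth is unknown.

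Symbols were matched for 16306 of 16344 identifiers. Groups follow the treatment label, with replicates numbered by record order. Values were tested as deposited with limma 3.58.1 in R 4.3.3 (trended, robust prior, no pseudocount, no filter), with all 6 libraries and Benjamini-Hochberg adjustment over all genes. Ratios between genes used exact permutation tests. The fit was tested on simulated data. Alternatives were a constant prior, pseudocounts of 0.1 and 1, only genes with a mean log2 RPKM of at least 0, median centring, quantile normalization, array weights, leaving out each library, and leaving out both libraries numbered 2. Named genes were the 9, the called genes of each signalling list or, without calls, the 3 with the smallest p, and the 3 nearest profiles for the 2 of the 9 genes with the smallest p. The genes around Med12l, P2ry2 and P2rx5 were added after their values were seen. The 9 genes and the lists were chosen with earlier results of these data known.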

Additional observations from a re-analysis of the deposited data

How the results depend on the processing

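None of the 9 genes was called with 6 libraries, in any fit without 1 library (0 to 0 lower), or under the other alternatives, except that limma array weights called 2 lower, P2ry6 (-1.38) and P2rx7 (-0.72). The array weights fit called 0.875% of all genes lower, and P2ry6 passed it narrowly (limma adjusted p 0.0495). The 4 lists of other signalling genes had 0 calls in every fit. At an unadjusted p under 0.05, 4 to 6 of the 9 genes were lower in each fit, where 606 to 1446 of all genes were. The 6 occurred without AZD7507 2, beside 802 of all genes, and without both libraries numbered 2, beside 1433. P2ry12, Adora2a and Adora2b were not tested at a minimum mean log2 RPKM of 0, where 4 of the remaining genes were lower, beside 729 of all genes tested there. The directions of P2ry6, P2ry12, P2ry13, P2rx4, P2rx7, Entpd1, Adora2a and Adora2b held in every fit. Leaving out 1 library gave -1.77 to -1.38 for P2ry6, -2.80 to -1.94 for P2ry12 and -2.23 to -1.74 for P2ry13, with limma adjusted p from 0.10 to 0.50 over the 3 genes. The Nt5e difference ran from -0.48 to 0.14 without 1 library, and was 0.16 with array weights and 0.12 without both libraries numbered 2. The difference between the groups in the log2 ratio of Adora2a to Adora2b was -0.11. It ran from -0.50 to 0.16 without 1 library. On the log2(RPKM + 1) scale the differences relative to the macrophage mean were 0.89 for P2ry12 and 0.096 for P2ry13; that scale shrinks differences of low genes by construction.

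Over all genes, 55 were lower and 3 higher. Without 1 library 0 to 14 were lower and 0 to 0 higher (863 to 2441 genes at an unadjusted p under 0.05). Array weights gave 143 lower and 14 higher, leaving out both libraries numbered 2 gave 13 lower and 1 higher, and a constant prior gave 1 higher. The cause was not tested. No paired analysis was possible because the labels give no replicate numbers.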

Other observations

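Gpr171 and P2ry14, receptor genes of the same region of chromosome 3 as P2ry12 and P2ry13, were looked up after the values of that pair were known. Gpr171 was at -1.04, -0.87 and 0.30 log2 RPKM with AZD7507, against 0.32, 0.48 and 0.57 log2 RPKM with Vehicle. Its groups were apart by a narrow margin, with a difference of -0.99 (limma adjusted p 0.50). P2ry14, the UDP-glucose receptor gene, was at -1.51 ± 0.91 with AZD7507 and -1.30 ± 0.85 with Vehicle (SD, n = 3 each), with groups that overlapped and a difference of -0.22 (limma adjusted p 0.95). Neither gene passed.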
